A study of Rattus norvegicus with 4 samples.

Results

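The solute carriers are a large class of membrane transporters, and the rat left ventricle was measured here for 116 of their genes. The members were the genes with a platform symbol of Slc and a digit on a probe set with no other symbol. Slc2a1, Slc2a4, Slc8a1 and Slc25a20 were left out of the 120 genes that this gave. The 116 members had 171 probe sets of the 8799 on the array, and were 116 of 4736 genes with a probe set of a single symbol. A member with several probe sets (40 members) was represented by the one with the highest mean over the arrays. All 116 symbols matched a rat gene of RefSeq (GRCr8).

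Solute carriers move ions, sugars, amino acids, nucleosides, metals and metabolites across the plasma membrane, the inner mitochondrial membrane and vesicle membranes, either down a gradient or coupled to the flow of another solute. In cardiac muscle the most abundant of them exchange adenine nucleotides and phosphate between mitochondria and cytosol. Others take up lactate, fatty acids, creatine and taurine, or remove acid and bicarbonate at the cell surface.

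Total RNA of the left ventricle was hybridised to 4 Affymetrix RG-U34 arrays (chip A of the set). The SD control array held RNA of a Sprague Dawley control, and the dTGR array RNA of double transgenic rats, which carry human renin and human angiotensinogen as transgenes and develop hypertension and an enlarged heart. The losartan array held RNA of dTGR given losartan, which blocks the AT1 receptor of angiotensin II. The label of the terminal heart failure array names no genotype or treatment of its own, although the description shared by all samples is that of the transgenic rats. The sources used here do not give age, dose, the promoters of the transgenes, the number of animals or any pooling of RNA. There was 1 array per group, so no value below has a replicate error and no difference was tested.

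Values are intensities on a linear scale, each array scaled to the same trimmed mean, and values up to 26, the 40th percentile of all values pooled, were treated as not above the floor. Trimmed means had been 200.2 to 200.3 as deposited, and 58.2% to 63.5% of probe sets lay above the floor. The 100 most intense probe sets held 46.3% of the signal on the dTGR array and 31.8% to 36.9% on the others. SD control and dTGR were on chips of the same lot and the other samples on chips of a second lot. Terminal heart failure was run on a separate day, and dTGR was processed with another fluidics protocol (0 cycles of washes A1 and B, against 10 and 4 on the others). In a comparison across these, handling and group cannot be told apart. Of 9 cardiomyocyte markers, 8 were on the array, and all 8 lay above the floor on all 4 arrays. An intensity depends on the probes, so levels were compared between arrays and not between genes. In tissue RNA, fewer cells of a type and less RNA per cell cannot be told apart.

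Of the 116 members, 80 had a mean intensity above the floor. The nearest member above it was Slc52a3, a riboflavin transporter, with a mean of 28.8, and the nearest under it was Slc27a2, a fatty acid transporter, with 25.7. On all 4 arrays 60 members (51.7%) lay above the floor, and on none of them 23 (19.8%), against 54.6% and 19.6% of all 4736 genes. The median of the members' mean intensities was 55.2, against 57.3 for all genes. Over the 60 members above the floor on every array, the median ratio of the highest to the lowest array was 1.76, the same as for all genes, with 16 members under 1.5 and 20 at 2 or more. The terminal array was the lowest for 34 of the 80 members (42.5%, all genes 36.4%), and the dTGR array was the highest for 29 (36.3%, all genes 30.2%).

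A member was counted as higher or lower where its values differed at least 2-fold, with the floor in place of any value under it. All 6 pairs of arrays were compared, and pairs that share an array share its error. Between terminal heart failure and SD control, 8 of 82 members were higher (9.76%, all genes 6.38%) and 10 were lower (12.2%, all genes 8.4%). Between terminal heart failure and dTGR, 10 of 88 were higher (11.4%, all genes 7.69%) and 12 lower (13.6%, all genes 11.8%). Between dTGR and SD control, 9 of 89 were higher (10.1%, all genes 7.69%) and 6 lower (6.74%, all genes 5.87%). In each of these 6 counts the share of members was a little above that of all genes, with no test of the difference. The 6 come from pairs that share arrays. In the pairs with losartan-treated dTGR, given next, the members' shares lay on both sides of those of all genes.

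Losartan-treated dTGR was lower than dTGR for 12 of 89 members (13.5%, all genes 9.5%) and higher for 5 (5.62%, all genes 5.9%). Against SD control it was lower for 2 of 81 members (2.47%, all genes 4.86%) and higher for 1 (1.23%, all genes 2.24%). Terminal heart failure against losartan-treated dTGR had 8 of 82 members higher (9.76%, all genes 7.44%) and 5 lower (6.1%, all genes 7.35%). The pair with the fewest members past 2-fold was thus losartan-treated dTGR and SD control. In all, 36 of 116 members (31%) passed 2-fold in at least 1 comparison, against 28.6% of all 4736 genes, and 80 members passed it in none. The plot of shares by comparison sets the members beside all genes.

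Limited to members above the floor on both arrays, where a fold is measured on both sides, 10 of the 12 counts were smaller and 2 were the same. Terminal heart failure was higher than SD control for 6 of 67 members (8.96%, all genes 6.07%) and lower for 8 (11.9%, all genes 7.41%). Against dTGR it was higher for 8 of 69 (11.6%, all genes 6.92%) and lower for 6 (8.7%, all genes 9.14%). Against losartan-treated dTGR it was higher for 6 of 65 (9.23%, all genes 6.65%) and lower for 5 (7.69%, all genes 7.01%). The terminal array thus had members on both sides in each comparison. Between dTGR and SD control, 4 of 69 were higher (5.8%, all genes 5.08%) and 4 lower (5.8%, all genes 4.66%). Losartan-treated dTGR was higher than dTGR for 3 of 67 (4.48%, all genes 5.18%) and lower for 6 (8.96%, all genes 6.59%), and against SD control it was higher for 1 of 67 (1.49%, all genes 1.62%) and lower for 0 (all genes 4.04%). Over all genes, probe sets of the same gene that were both above the floor had differences with an SD of 0.51 to 0.60 on the log2 scale, which measures the spread between probes and not between animals.

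**Figure D1:**
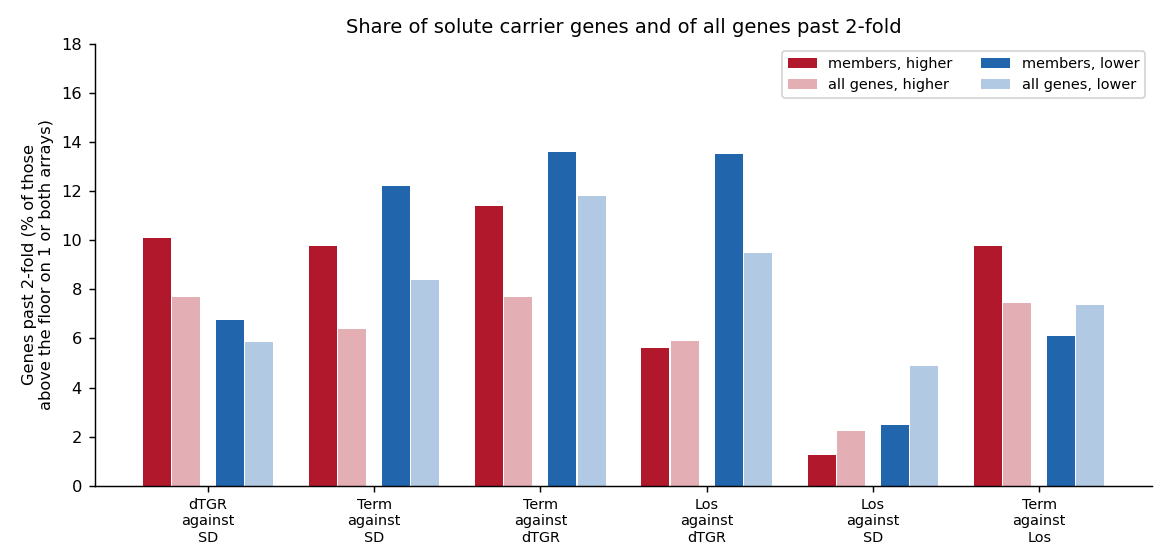
Percent of solute carrier members and of all genes (y axis) that differed at least 2-fold, higher or lower, in each comparison of arrays (x axis). The members' shares lie between 1.23% and 13.6%, near those of all genes in each comparison.

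On the terminal array 6 members (5.17%, all genes 2.2%) were at least 2-fold higher than on each other array. Of these, 3 were in the class of amino acid carriers, 2 in that of neurotransmitter, osmolyte and creatine carriers and 1 among the sugar carriers. Slc3a2, the heavy chain (CD98hc) that brings several amino acid transporters to the cell surface, had intensities of 248 in SD control, 333 in dTGR, 276 with losartan and 899 in terminal heart failure. It was 3.62-fold higher in terminal heart failure than in SD control, 2.70-fold higher than in dTGR and 3.26-fold higher than with losartan. Its other probe set gave 192, 182, 169.9 and 479 in the same order, so both were highest on the terminal array. Slc7a5 (LAT1), the large neutral amino acid exchanger that pairs with Slc3a2, had 75.3 in SD control, 51.5 in dTGR, 84.8 with losartan and 196 in terminal heart failure. Terminal heart failure was 2.60-fold, 3.81-fold and 2.31-fold higher than those arrays. Both partners of this exchanger were therefore past 2-fold against each of the other arrays.

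Slc1a1 (EAAC1), a glutamate, aspartate and cysteine transporter, had 68.1 in SD control, 62.6 in dTGR, 45.2 with losartan and 185 in terminal heart failure. The terminal array was 2.71-fold, 2.95-fold and 4.09-fold higher than those. A dimmer probe set gave 34.2, 71.1, 23.1 and 115, and the third gave 31 on the terminal array and at most 26 on the others. All 3 probe sets of the gene were thus highest on the terminal array.

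Slc6a6, the taurine transporter, had 46.6 in SD control, 60.4 in dTGR, 10.01 with losartan and 234 in terminal heart failure. It was 5.03-fold higher in terminal heart failure than in SD control, 3.88-fold higher than in dTGR and at least 9.01-fold higher than with losartan, where it was under the floor. Slc6a9 (GlyT1), a glycine transporter, had 49.4, 56.4 and 53.4 on the SD control, dTGR and losartan arrays and 187 on the terminal array. That is 3.78-fold, 3.31-fold and 3.49-fold higher, and the other arrays lay close together. Slc2a5, a fructose transporter, had 35.5 in SD control, 15 in dTGR, 19.1 with losartan and 73.0 in terminal heart failure. Against SD control this was 2.06-fold higher, and at least 2.81-fold higher against either dTGR array, and its other probe set was under the floor on all arrays. With the median over probe sets, Slc2a5 passed 2-fold in none of these comparisons, and Slc1a1 did not against dTGR. The plot of terminal heart failure members shows the 6 with the 3 that were lower.

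**Figure D2:**
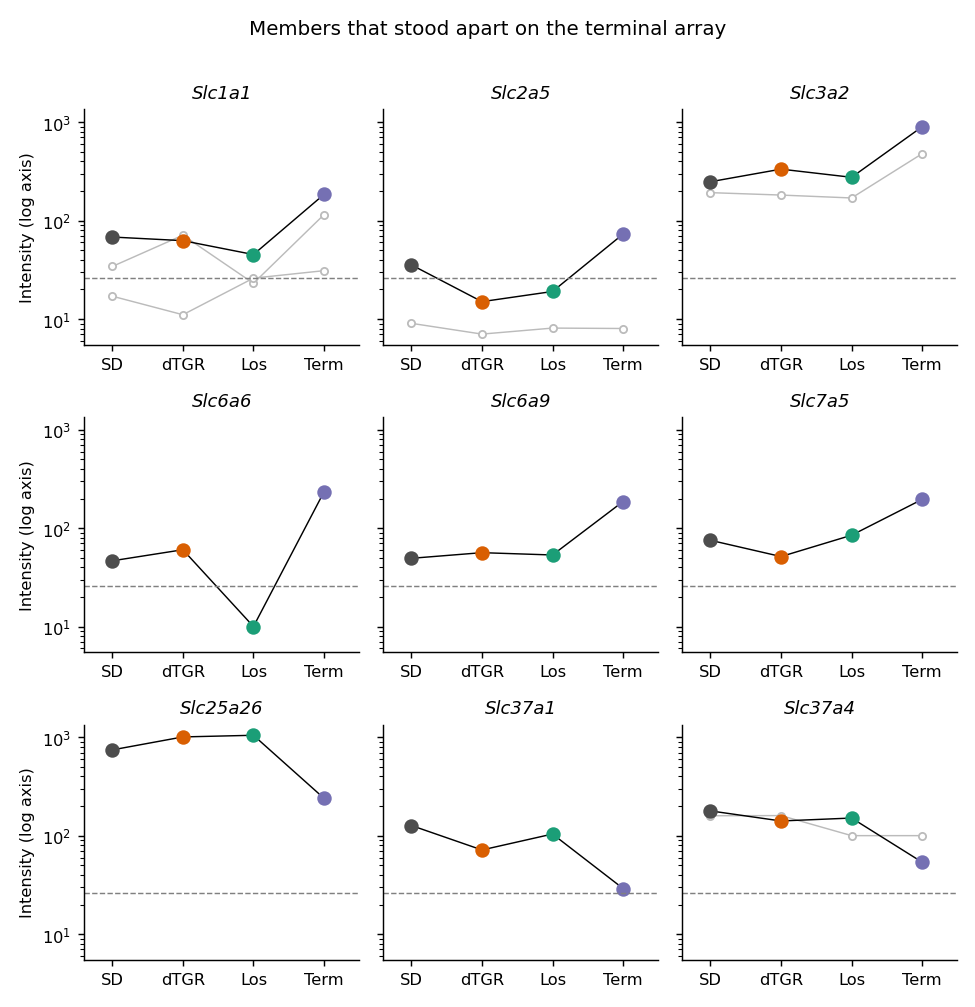
Intensity (y axis, log scale) on the 4 arrays (x axis) of the 9 members at least 2-fold higher or lower in terminal heart failure than on each other array. Lines join the values of 1 probe set, open points are a gene's other probe sets and the dashed line is the floor of 26; Slc3a2 ends at 899 and Slc25a26 at 240.1.

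The promoters of 4 of these genes are shown because the genes were higher on the same array. Each is taken from the 250 bases before a start site in the RefSeq promoter table (GRCr8), as far as these lie before the outermost annotated start of the gene, 5′ to 3′ in its direction, with CACGTG (the E-box hexamer) in capitals. For Slc6a6 and Slc6a9 the start site of the table lies inside the annotated gene, so 88 and 196 bases are shown, and for Slc3a2 the first of the table's start sites was used.
Slc3a2 (chr1:215048065-215048314, minus strand): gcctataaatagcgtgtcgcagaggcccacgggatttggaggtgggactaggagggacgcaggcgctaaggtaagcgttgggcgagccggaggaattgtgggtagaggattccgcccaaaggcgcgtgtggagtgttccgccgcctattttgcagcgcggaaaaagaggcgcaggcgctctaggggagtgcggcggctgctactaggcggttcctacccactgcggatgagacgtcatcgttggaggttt
Slc7a5 (chr19:66872413-66872662, minus strand): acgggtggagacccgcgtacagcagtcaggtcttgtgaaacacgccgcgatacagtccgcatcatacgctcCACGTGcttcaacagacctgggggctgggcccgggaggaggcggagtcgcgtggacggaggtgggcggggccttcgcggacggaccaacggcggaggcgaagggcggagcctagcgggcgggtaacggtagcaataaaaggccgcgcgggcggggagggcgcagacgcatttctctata
Slc6a6 (chr4:125752252-125752339, plus strand): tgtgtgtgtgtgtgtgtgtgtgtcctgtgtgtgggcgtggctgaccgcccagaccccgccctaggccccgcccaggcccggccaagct
Slc6a9 (chr5:136659826-136660021, plus strand): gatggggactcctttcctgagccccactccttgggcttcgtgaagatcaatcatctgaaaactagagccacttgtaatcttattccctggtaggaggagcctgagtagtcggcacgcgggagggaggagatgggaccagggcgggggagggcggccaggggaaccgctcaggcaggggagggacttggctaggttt
The terminal array was 3.62-fold (Slc3a2), 2.60-fold (Slc7a5), 5.03-fold (Slc6a6) and 3.78-fold (Slc6a9) higher than SD control for these genes. Slc7a5 holds CACGTG from base -179 before its start site, and the windows of the other 3 do not hold these letters. Windows of 300 bases, 250 before to 50 after the start, were searched on both strands in 98 members. CACGTG lay in 11 of the 98 (11.2%), against 6.65% of 27457 promoters of all genes. The members' windows had a median GC content of 60.2% and 17 CpG, against 52.3% and 7 for all promoters. TGATGNAAN, a form of the amino acid response element, lay in 2 member windows (2.04%), those of Slc7a1 and Slc23a3, against 3.80% of all promoters, and TTGCATCA, another form of it, in 0 of 98 against 0.743%. TGTTCT, a half-site of the glucocorticoid response element, lay in 12 (12.2%) against 20.1%. A match is a run of letters and not a measured binding site.

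The amino acid carriers had 10 members, of which 7 had a mean above the floor. Terminal heart failure was higher than SD control for 3 of them and lower for 0, with a median log2 difference of 0.26 over the 7, against -0.16 for all 80 members and -0.14 for all genes. This median was 1.15 with the median over probe sets and 0 with the floor at the 60th percentile. Against dTGR, 4 were higher and 0 lower (median 1.27, all genes -0.14). Of all genes above the floor on 1 or both of these arrays, 7.69% were higher and 11.8% lower. The median of 1.27 is the value of Slc1a2 itself. It was 0.88 with the median over probe sets and 0 with the floor at the 60th percentile. Against losartan-treated dTGR, 3 were higher and 1 lower (median 0.01). The fourth of those higher than dTGR was Slc1a2 (GLT-1), a glutamate transporter. It had 60.7 in SD control, 27 in dTGR, 64.9 with losartan and 65.3 in terminal heart failure. Its low value was thus on the dTGR array alone. The next brightest of its probe sets gave 24.1, 36.9, 26 and 17.1, highest where the first was lowest. Slc7a1 (CAT-1), a transporter of arginine and lysine, had 36, 51.2, 57.1 and 43.1 on the SD control, dTGR, losartan and terminal arrays. Its 2 dimmer probe sets, chosen for mention after their values were seen, gave 58.5 and 57.5 on the terminal array against 18.1 and 7.04 in SD control.

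Genes of other cell types moved beside these. Macrophage markers summed to 1379 in SD control, 2047 in dTGR, 1459 with losartan and 4293 in terminal heart failure over the 5 of 8 on the array, and 4 of them passed 2-fold, all upward, from SD control to terminal heart failure. Csf1r, a defining receptor of macrophages, was under the floor on all 4 arrays. The part of macrophages in the amino acid carriers' difference was not tested. Of 6 measured genes of the amino acid response, Atf3 and Cebpb were the 2 that were higher in terminal heart failure than in SD control. Asns, asparagine synthetase, had 23.1 in SD control and 35.2 in terminal heart failure. Ddit3 had 207 and 159 on those arrays, and Trib3 had 106 and 68.8. Of this list, 2 of 6 were thus past 2-fold, and the enzyme and both other named genes were not.

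Among the members lower on the terminal array, Slc25a26, the mitochondrial carrier of S-adenosylmethionine, had 745 in SD control, 1009 in dTGR, 1049 with losartan and 240.1 in terminal heart failure. The terminal array was 3.10-fold, 4.20-fold and 4.37-fold lower than those. Slc37a1, an exchanger of sugar phosphates for phosphate, had 127, 71.7, 104 and 29.1 in that order. Terminal heart failure was thus 4.37-fold, 2.46-fold and 3.58-fold lower, with its value near the floor.

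Slc37a4, the glucose-6-phosphate transporter of the endoplasmic reticulum, had 179 in SD control, 141 in dTGR, 151 with losartan and 53.8 in terminal heart failure. It was 3.32-fold, 2.63-fold and 2.81-fold lower on the terminal array, but its dimmer probe set gave 159.6, 160.3, 100.2 and 100.2, with no difference between the losartan and terminal arrays. With the median over its probe sets, Slc37a4 no longer passed 2-fold against losartan-treated dTGR. At least 2-fold lower on the terminal array than on each other array were these 3 members (2.59%, all genes 1.35%). They include both members of the Slc37 family on the array.

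Mitochondrial carriers had 11 members, all with a mean above the floor, counting Slc25a17, a carrier of the same family that lies in peroxisomes. All 11 were lower in terminal heart failure than in SD control, by log2 differences of -1.63 to -0.02 with a median of -0.52, and 2 of them passed 2-fold. In this comparison 46 of the 80 members above the floor and 59.3% of all genes were lower. With each array scaled to the same median, or with cyclic loess, 10 of 11 were lower, with Slc25a5 at 0.04 and 0.06. Besides Slc25a26, Slc25a10, the dicarboxylate carrier, had 189 in SD control, 192 in dTGR, 153 with losartan and 84.0 in terminal heart failure. It was 2.25-fold lower than in SD control and 2.28-fold lower than in dTGR, where scaling to the same median ended the latter call and the median over its probe sets ended both. In addition, another probe set was under the floor only on the losartan and terminal arrays (46.9, 34.8, 11.01 and 9.02). Slc25a11, the oxoglutarate and malate carrier, had 2352, 2124, 1738 and 1183, and its dimmer probe set had 1006, 998, 1177 and 551. Both were lowest on the terminal array, which for the brighter one was 1.99-fold lower than SD control.

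The brightest members were carriers of the inner mitochondrial membrane. Slc25a4, the adenine nucleotide exchanger of heart and muscle, had 11566 in SD control, 20558 in dTGR, 16266 with losartan and 10349 in terminal heart failure. The dTGR array was 1.78-fold higher than SD control, but after quantile normalization the log2 difference was -0.11. Slc25a3, the phosphate carrier, had 9092, 14963, 12342 and 7284. It was 1.65-fold higher in dTGR than in SD control and 2.05-fold lower in terminal heart failure than in dTGR, while quantile normalization gave log2 differences of -0.06 and -0.36, and scaling to the same median and cyclic loess ended the latter call too. Both were highest on the array whose 100 most intense probe sets held the largest share of the signal, and on which the 8 cardiomyocyte markers had their highest sum. They summed to 98597 in SD control, 195053 in dTGR, 131689 with losartan and 93253 in terminal heart failure, with a median log2 difference of 0.93 for dTGR against SD control and of -1.04 for terminal heart failure against dTGR, where 5 of 8 passed 2-fold. Of these markers Pln alone was lower in dTGR than in SD control, with 2717 against 3091, and it was highest with losartan at 3491. The part of the signal share or of the markers in the carriers' differences was not tested. Slc25a5, the exchanger's more widely expressed form, had 2385, 2201, 2926 and 2359, and passed 2-fold in no comparison.

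Slc16a1 (MCT1), the lactate and pyruvate transporter, had 1313 in SD control, 1257 in dTGR, 939 with losartan and 1273 in terminal heart failure. Its other probe set had 312, 311, 435 and 316, highest on the array where the brighter one was lowest. Slc12a7 (KCC4), a potassium and chloride cotransporter, had 1292, 1597, 1742 and 999.8, with terminal heart failure 1.74-fold lower than losartan-treated dTGR. Slc41a3, of a family of magnesium transporters, had 902, 948, 1013 and 595. None of these bright members passed 2-fold.

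Slc4a3 (AE3), the chloride and bicarbonate exchanger of cardiac muscle, had 704 in SD control, 670.2 in dTGR, 549.8 with losartan and 418 in terminal heart failure, 1.68-fold lower than SD control. Slc6a8, the creatine transporter, had 507, 509.7, 453 and 395. Slc27a1 (FATP1), a fatty acid transporter, had 383, 268, 320.2 and 209, 1.83-fold lower in terminal heart failure than in SD control. All 3 had their lowest value on the terminal array, within 2-fold of SD control. Slc35b1, of the endoplasmic reticulum, had 529.9, 601, 541 and 728, and Slc14a2, a urea transporter, had 256, 261, 253 and 143. The other probe set of Slc14a2 was under the floor on all 4 arrays. The plot of the brightest members shows these values.

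**Figure D3:**
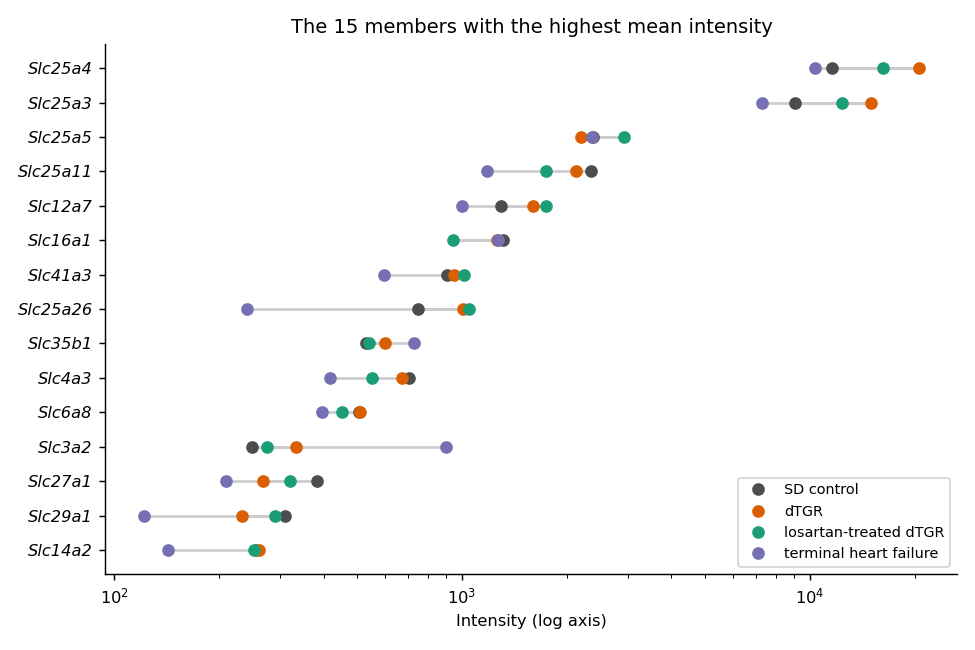
Intensity (x axis, log scale) of the 15 members with the highest mean (1 row each), with 1 point for each of the 4 arrays, coloured by group. Slc25a4 lies between 10349 and 20558, and Slc25a26 and Slc3a2 have the widest spread, with the terminal array lowest for the former and highest for the latter.

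Nucleoside transporters differed in opposite directions. Slc29a1 (ENT1), which carries adenosine down its gradient, had 309.8 in SD control, 233 in dTGR, 290.2 with losartan and 122 in terminal heart failure. It was 2.54-fold lower in terminal heart failure than in SD control and 2.38-fold lower than with losartan. Slc28a2 (CNT2), which takes up purine nucleosides with sodium, had 201, 74.6, 116 and 238. It was 2.69-fold lower in dTGR than in SD control, and terminal heart failure was 3.19-fold higher than dTGR and 2.06-fold higher than losartan-treated dTGR, the last not past 2-fold with quantile normalization. On the terminal array the first was therefore at its lowest and the second at its highest.

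Metal and acid-base carriers were also among the lower members. Slc11a2 (DMT1), the transporter of ferrous iron, had 256 in SD control, 137 in dTGR, 167 with losartan and 124 in terminal heart failure, 2.07-fold lower than SD control, a call that ended under all 3 other scalings and with the median over probe sets. Another probe set gave 83.5, 25, 31.6 and 42.2, so SD control was the highest array for both. Slc4a7 (NBCn1), a sodium and bicarbonate cotransporter, had 173, 127, 115 and 79.0, and was 2.18-fold lower in terminal heart failure than in SD control, but not past 2-fold with cyclic loess. Slc13a2, a sodium-coupled carrier of citrate and other dicarboxylates, had 88.4, 31.4, 25.1 and 18.1. It was 2.82-fold lower in dTGR than in SD control, and at least 3.40-fold lower with losartan and in terminal heart failure. Its SD control value thus lay apart from the other 3.

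Slc22a3 (OCT3), the extraneuronal transporter of monoamines such as noradrenaline, had 99.0 in SD control, 4.03 in dTGR, 77.1 with losartan and 40.6 in terminal heart failure. It was at least 3.81-fold lower in dTGR than in SD control and at least 2.97-fold higher with losartan than in dTGR. The dimmer probe set had 29.1, 4.04, 25.1 and 10.03, with the same array lowest. Slc25a14 (UCP5), a mitochondrial carrier of the uncoupling protein family, had 79.6, 27, 102 and 66.1. It was 2.95-fold lower in dTGR than in SD control and 3.76-fold higher with losartan than in dTGR, but its dimmer probe set had 6.03, 9.08, 63.7 and 23, under the floor on both the SD control and dTGR arrays. Slc1a2 and Slc25a14 were the members at least 2-fold lower on the dTGR array than on each other array (1.72%, all genes 0.992%), and 4 were higher by that measure (3.45%, all genes 2.6%), namely Slc32a1, Slc44a4, Slc6a20a and Slc6a5. The median over probe sets ended calls of Slc1a2, Slc25a14, Slc22a3 and Slc32a1. For losartan-treated dTGR against dTGR, Slc6a20a and Slc6a5 had log2 differences of -1.08 and -1.10. Both calls ended with scaling to the same median, quantile normalization or cyclic loess, so neither gene kept this pattern under those scalings.

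Members higher on the dTGR array were dim, and none of the 9 counted as higher there than in SD control had an intensity above 94.4. Carriers of neurotransmitters, osmolytes and creatine had 20 members, of which 13 had a mean above the floor. Of these, 4 were higher in dTGR than in SD control, 2 of them with both arrays above the floor, and 0 were lower. Of all genes above the floor on 1 or both of these arrays, 7.69% were higher and 5.87% lower. The members' median log2 difference was 0.37, against -0.00 for all genes. It was 0.13 when arrays were scaled to the same median, 0.21 with quantile normalization and 0.01 with the floor at the 60th percentile. Slc6a5 (GlyT2), the glycine transporter of inhibitory neurons, had 33.6 in SD control, 70.7 in dTGR, 33 with losartan and 18.1 in terminal heart failure. It was 2.10-fold higher in dTGR than in SD control and 2.14-fold lower with losartan than in dTGR, and both calls ended with scaling to the same median, quantile normalization or cyclic loess. Slc6a7, a proline transporter, had 26.1, 73.3, 40.2 and 23.1, and was 2.81-fold higher in dTGR than in SD control. Slc6a20a, a carrier of proline and related imino acids, had 26 in SD control, just under the floor, then 63.5, 30.01 and 4.04, at least 2.44-fold higher in dTGR than in SD control. Each of the 3 thus had its highest value on the dTGR array.

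Nerve and glia markers, with 6 of 8 on the array, summed to 656 in dTGR and to 827 to 912 on the other arrays, of which Pmp22, a myelin protein gene also active outside nerve, made up 457 in dTGR. Single markers differed in their order over the arrays, with Dbh, of noradrenaline synthesis, highest in dTGR at 37.8 and Th, of catecholamine synthesis, lowest with losartan at 16.02. Snap25, the 1 marker of this list past 2-fold between dTGR and SD control, was lower in dTGR, with 14 against 76.7. Th, Npy and Pmp22 were also lower in dTGR than in SD control. S100b was under the floor on all 4 arrays. Their part in the values of Slc6a5, Slc6a7 and Slc6a20a was not tested. On the dTGR array 83 members lay above the floor, against 73 to 75 on the others, and 8 members (6.90%, all genes 6%) lay above it on that array alone.

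Zinc, sulfate and bile acid carriers were also highest on the dTGR array. Slc30a2, a zinc transporter of vesicles, had 40.6 in SD control, 94.4 in dTGR, 35.8 with losartan and 55.6 in terminal heart failure. It was 2.32-fold higher in dTGR than in SD control and 2.64-fold lower with losartan than in dTGR, the former call ending with scaling to the same median. Slc30a4, a related zinc transporter, had 17.1, 93.7, 35.2 and 63.0. It was at least 3.60-fold higher in dTGR than in SD control, 2.66-fold lower with losartan than in dTGR and terminal heart failure was at least 2.42-fold above SD control. Both zinc carriers were thus highest in dTGR and next highest in terminal heart failure.

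Slc26a1, a sulfate transporter, had 28.1 in SD control, 57.2 in dTGR, 23 with losartan and 34.5 in terminal heart failure. It was 2.04-fold higher in dTGR than in SD control and at least 2.20-fold lower with losartan than in dTGR. Slc10a2, the bile acid transporter of the ileum, had 38.3, 61.8, 30.01 and 52.6, with losartan 2.06-fold lower than dTGR. All calls of Slc26a1 and Slc10a2 ended with scaling to the same median, quantile normalization or cyclic loess. Slc5a1 (SGLT1), the sodium and glucose cotransporter, had 100.3, 165, 118 and 76.2, 2.16-fold lower in terminal heart failure than in dTGR. The dimmer probe set of Slc5a1 had 11 on the dTGR array and 62.5 in SD control, so the probe sets disagreed on that array, and scaling to the same median ended the call.

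The losartan array stood apart for Slc3a1 and Slc4a1. Slc3a1 (rBAT), the heavy chain of the cystine transporter of kidney and gut, had 111 in SD control, 96.6 in dTGR, 284 with losartan and 94.4 in terminal heart failure. Losartan-treated dTGR was 2.94-fold higher than dTGR and 2.56-fold higher than SD control, and Slc3a1 was the only member counted as higher in the latter comparison (those lower were Slc13a2 and Slc34a1). Kidney and liver epithelium markers summed to 351 on the losartan array and to 266 to 335 on the others over 5 of 6 genes, and Umod, a kidney tubule gene, had 106 with losartan against 17 to 54.7. Their part in the difference was not tested.

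Slc4a1 (band 3), the anion exchanger of red blood cells, had 143 in SD control, 163 in dTGR, 73.1 with losartan and 177 in terminal heart failure. It was 2.23-fold lower with losartan than in dTGR, a call that ended with scaling to the same median or the median over probe sets. Its other probe sets gave 183, 121, 101 and 141, and 4.02, 36.7, 14 and 15.1, and the losartan array was the lowest for the first of these only. Alas2, the heme synthesis enzyme of red cell precursors, had 525, 604, 252 and 856, also lowest with losartan. The 3 erythroid genes on the array of 7 listed, Alas2 and 2 globins, summed to 15456 in SD control, 27070 in dTGR, 18854 with losartan and 21355 in terminal heart failure. Their part in Slc4a1 was not tested. The plot of members that differed on the dTGR or losartan array shows these profiles.

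**Figure D4:**
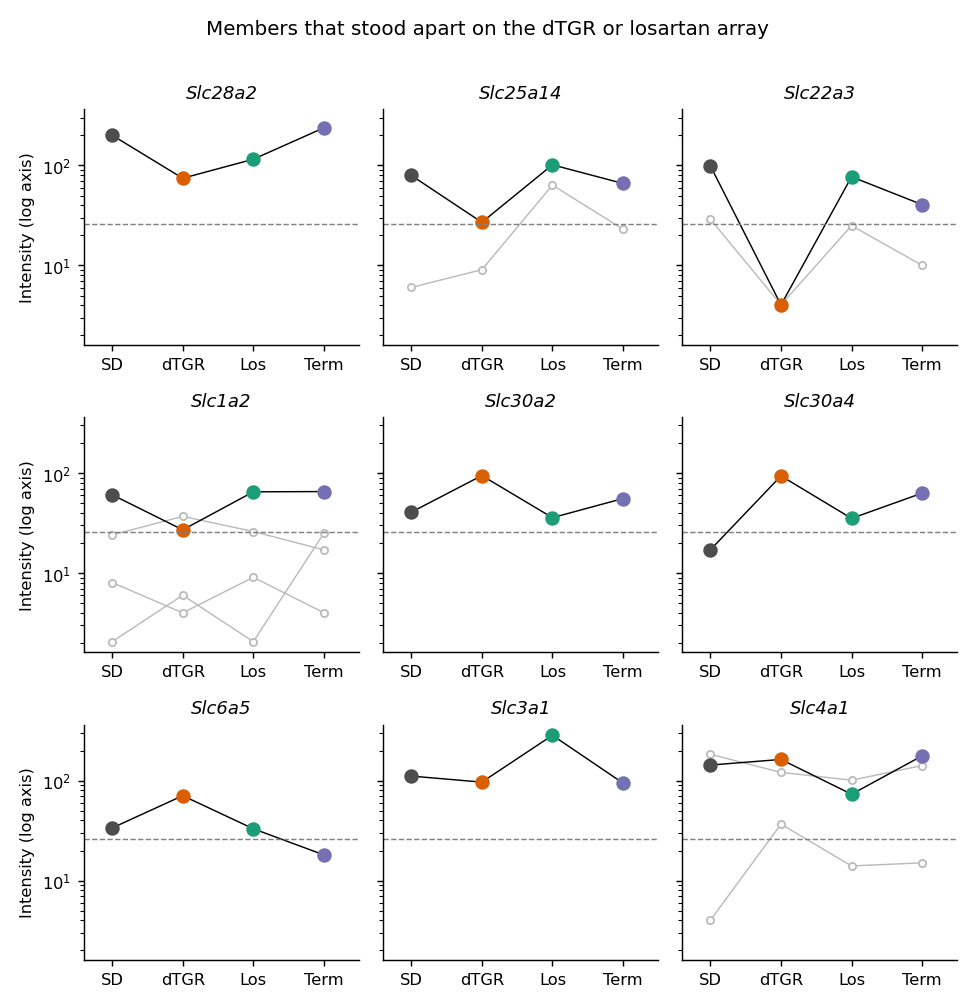
Intensity (y axis, log scale) on the 4 arrays (x axis) of 9 members that stood apart on the dTGR or losartan array. Lines join the values of 1 probe set, open points are a gene's other probe sets and the dashed line is the floor of 26, which Slc25a14 and Slc1a2 approach and Slc22a3 crosses on the dTGR array, while Slc3a1 reaches 284 on the losartan array.

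A further 7 members passed 2-fold only where 1 of the arrays was under the floor, and their folds are bounds. Slc34a1, the renal phosphate cotransporter, had 84.4 in SD control, 86.1 in dTGR, 21.0 with losartan and 47 in terminal heart failure, at least 3.31-fold lower with losartan than in dTGR, and its 5 probe sets disagreed. With the median over probe sets the calls of Slc34a1, Slc35a1 and Slc6a3 ended. Slc35a1, the CMP-sialic acid transporter of the Golgi, had 59.5, 25, 85.1 and 50.7, at least 3.27-fold higher with losartan than in dTGR. Slc44a4, of the choline transporter-like family, had 14, 81.7, 10.02 and 14.1, at least 3.14-fold higher in dTGR than on each other array. Slc32a1, the vesicular GABA and glycine transporter, followed the same profile with 76.2 in dTGR and 7.09 to 19 on the others, at least 2.93-fold. Its other probe set did not, with 8.09, 10, 12.1 and 33, above the floor on the terminal array alone.

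Slc6a3, the dopamine transporter, had 80.4 in SD control, 67.3 in dTGR, 50.4 with losartan and 24 in terminal heart failure, at least 3.09-fold lower than SD control. Slc6a17, a neutral amino acid transporter of synaptic vesicles, had 8.02, 15.1, 43.3 and 62.3, with terminal heart failure at least 2.40-fold above both SD control and dTGR. Slc22a13, an organic anion transporter named after its values were seen, had 11.1, 56.8, 23.1 and 40.6, at least 2.18-fold higher in dTGR than in SD control or with losartan.

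Many members above the floor on all 4 arrays passed 2-fold in no comparison. Slc20a2, a phosphate transporter, had 204 in SD control, 177 in dTGR, 178 with losartan and 194 in terminal heart failure, a ratio of 1.15 between the highest and the lowest. Slc16a3 (MCT4), the lactate exporter of glycolytic cells, had 51.9, 57.2, 53.1 and 59.0, a ratio of 1.14. Each of these has a single probe set. Slc5a6, the sodium-dependent vitamin transporter, had 216, 208, 205 and 182, but its other probe set had 91.3, 162, 57.9 and 56.0, highest in dTGR. Slc22a5 (OCTN2), the carnitine transporter, had 126, 125, 93.7 and 112. Slc2a3, a glucose transporter of neurons, had 48.1, 45.1, 43.6 and 53.1, and its other probe set was under the floor on all 4 arrays. The highest and lowest arrays of Slc22a5 and Slc2a3 were at most 1.35-fold apart.

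Other members came close to 2-fold. Slc29a2 (ENT2), a second equilibrative nucleoside transporter, had 132 in SD control, 191 in dTGR, 104 with losartan and 95.9 in terminal heart failure, a ratio of 1.99. Slc25a1, the mitochondrial citrate carrier, had 125, 150.4, 81.4 and 84.0, a ratio of 1.85. Slc6a2, the noradrenaline transporter of sympathetic nerve endings, had 46.5, 76.5, 65.8 and 42.8, a ratio of 1.79. In each the dTGR array was the highest, while the other probe set of Slc6a2 was under the floor on all 4 arrays. Slc40a1 (ferroportin), the iron exporter, had 54.0, 77.4, 66.7 and 88.7, and Slc19a1, the reduced folate carrier, had 178, 172, 149 and 250.4. Their other probe sets differed in order, with 35.2, 43.4, 88.1 and 65.2 for Slc40a1 and 168, 157, 126 and 164 for Slc19a1.

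Of the 36 members with a mean under the floor, many are known from organs other than the heart. They included Slc12a1 and Slc5a2, which take up salt and glucose in the kidney tubule and had 1.02 to 8.04 and 4.07 to 12.1 over the 4 arrays. Slc10a1, the bile acid transporter of the liver, had at most 5.04, and Slc17a7, the vesicular glutamate transporter of neurons, had at most 6.08. The amino acid carriers Slc7a2, Slc7a3 and Slc1a6 had at most 18.1. Slc18a1 and Slc18a2, the vesicular monoamine transporters, had 29.03 and 43.9 on the dTGR array and at most 19.1 on the others. A value under the floor does not show that the transcript is absent.

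By transported substance, the remaining groups differed in how many members passed 2-fold between terminal heart failure and SD control. Of all genes above the floor on 1 or both of these arrays, 6.38% were higher and 8.4% lower. The groups' counts are set against their members with a mean above the floor. Sugar and polyol carriers had 1 higher and 2 lower of 7 (median log2 -0.25), and ion exchangers and cotransporters had 0 higher and 1 lower of 10 (-0.13). Nucleoside and nucleotide sugar carriers had 0 higher and 1 lower of 6 (-0.22). Monocarboxylate and dicarboxylate carriers had 0 and 1 of 6 (0.16), organic ion carriers 0 and 1 of 6 (-0.02), and metal and phosphate carriers 1 and 1 of 7 (-0.07). Carriers of neurotransmitters, osmolytes and creatine had 3 higher and 1 lower of 13 (-0.12), and those of fatty acids, vitamins and other substances 0 and 0 of 7 (-0.27). Between losartan-treated dTGR and dTGR, neurotransmitter carriers had 0 higher and 4 lower of 13 (-0.42), metal and phosphate carriers 0 and 3 of 7 (-0.21) and organic ion carriers 1 and 2 of 6 (-0.57). In that comparison 5.9% of all genes were higher and 9.5% lower. With other scalings the median of terminal heart failure against SD control changed sign for metal and phosphate carriers (0.09 with cyclic loess) and for organic ion carriers (0.14), and that of losartan-treated dTGR against dTGR for metal and phosphate carriers (0.02 with the same median). The plot by class shows each member.

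**Figure D5:**
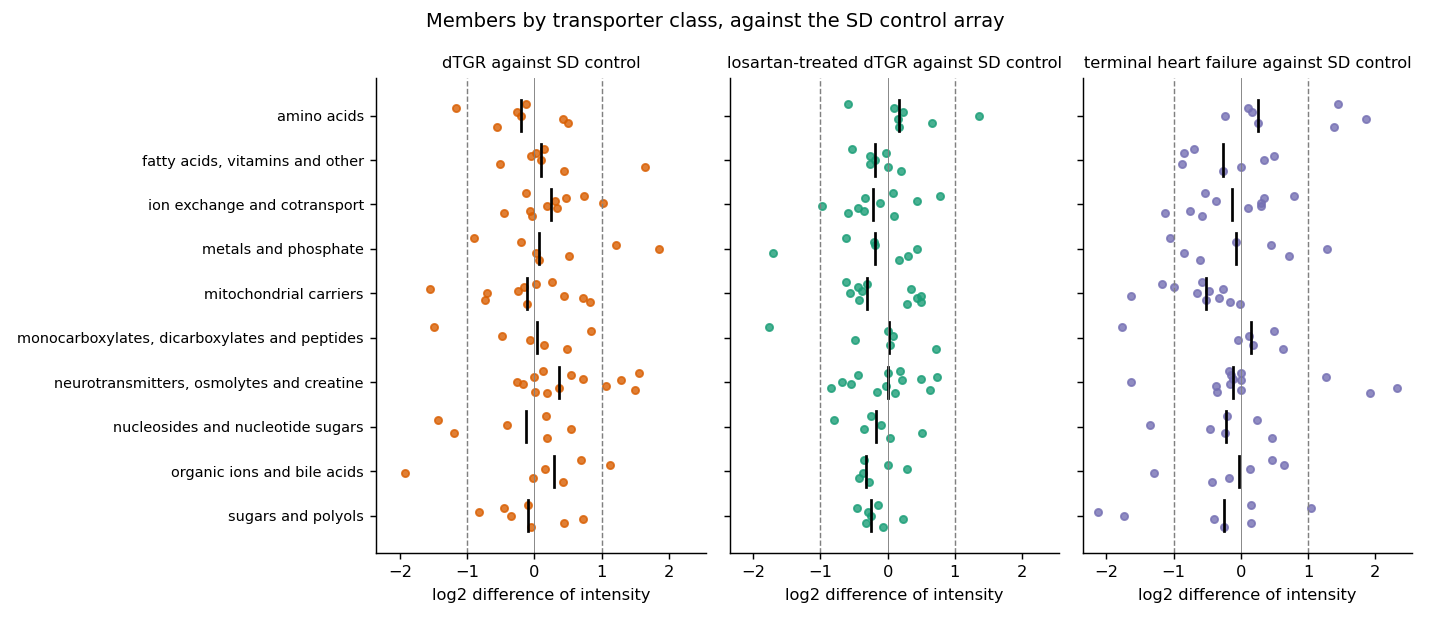
Log2 difference from the SD control array (x axis) on the dTGR, losartan and terminal arrays (3 panels) for each member with a mean above the floor, 1 row of points per class of transported substance, with a bar at the median and dashed lines at 2-fold. In the terminal panel the 11 mitochondrial carriers lie from -1.63 to -0.02, and their median of -0.52 is the lowest of the classes.

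Other transport genes on the array gave a frame for the solute carriers. Of 7 genes of the sodium pump and its regulators, 0 were higher and 1 was lower in terminal heart failure than in SD control, namely Atp1b2, a beta subunit, with 92.8 in SD control and 39.7 in terminal heart failure. Fxyd1, phospholemman, had 4974, 6268, 3573 and 2951. Of 12 ABC transporters 0 passed 2-fold in that comparison, although Abcd3, a peroxisomal fatty acid transporter, had 1836 with losartan and 225 to 282 on the other arrays. Of 9 aquaporins 1 was higher, Aqp1, the water channel of capillaries and red cells, with 1068 in SD control and 2490 in terminal heart failure. Of 6 members of the Slco family 1 was higher, the prostaglandin transporter Slco2a1, with 37.5 and 118. Of 6 carbonic anhydrases 1 was lower, the mitochondrial Car5a, with 67.6 and 18.1.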

How the data were processed

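Left ventricle RNA was measured on 4 Affymetrix arrays, 1 per group, and the authors deposited, for each array, a linear intensity per probe set. The sources used here do not name the software. The instrument records deposited with the arrays hold other settings, from which only chip lot, run day and fluidics were read. Of 15281 deposited values from 1 to under 32, 13625 had decimals in the form of a day and month, as a spreadsheet writes them.

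Arrays were multiplied to bring their means, trimmed by 2% at each end, to a common value, values under the 40th percentile (26) were set to it, and log2 was taken (Python 3.11.15, pandas 2.3.3, numpy 2.4.6). Of 8799 probe sets, 7006 had a single symbol; 59 controls and 308 with several symbols were among those left out. Alternatives used R 4.3.3 and limma 3.58.1 for quantile and cyclic loess normalization. The comparison was run on simulated data, with bright genes only, changes well past 2-fold and less noise than lies between probe sets here. That run checks the code and not the reliability of the 2-fold calls. With 1 array per group no test was run, and the number of arrays limits the precision. Members named are those past 2-fold with both arrays above the floor, the 15 brightest, and the 6 furthest apart of those past 2-fold only as bounds. Steady, near 2-fold and low members were picked for mention after their values were seen. Of the members, 23 are represented by a probe set whose name ends in _s_at, which can match related transcripts. The members, lists and tests were chosen with earlier results of these data known.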

Additional observations from a re-analysis of the deposited data

How the results depend on the processing

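No paired analysis was possible because each group had 1 array, and for the same reason no array could be left out. Of 86 differences past 2-fold among the 46 members named by rule, 26 stayed past it under all 7 alternatives. The calls of Slc22a13 were not followed in this way. The 26 belonged to Slc1a1, Slc25a26, Slc28a2, Slc29a1, Slc37a4, Slc3a1, Slc3a2, Slc6a6, Slc6a9 and Slc7a5. Of these genes only Slc1a1, Slc3a2 and Slc37a4 have several probe sets, so the median over probe sets could not change the others. Removing the floor can hardly narrow a fold, so it was little of a check. A floor at the 60th percentile lost 49, taking the median over probe sets 28, scaling to the same median 12, quantile normalization and cyclic loess 9 each, the reading of low values as 1 decimal (chosen after seeing the data) 1, and no floor 0. Counts of members past 2-fold that moved by more than 1.5 times were these, with the cause not tested except where fewer or more members could pass the floor. Scaling to the same median gave 5 higher in dTGR than SD control (9 before) and 6 lower with losartan than in dTGR (12 before), and quantile normalization and cyclic loess gave 7 of the latter. That scaling moved the median of all genes from -0.00 to -0.24 for dTGR against SD control. The split there was 5 higher and 8 lower with it, and 6 and 6 with quantile normalization or cyclic loess, against 9 and 6. For losartan-treated dTGR against dTGR it was 5 and 6 with it, and 5 and 7 with the others, against 5 and 12. Without the floor, counts higher and lower were 22 and 12 for dTGR against SD control, 15 and 24 for terminal heart failure against SD control, 11 and 29 for losartan-treated dTGR against dTGR, 6 and 13 for it against SD control, and 13 and 16 for terminal heart failure against it, with 33 lower in terminal heart failure than in dTGR. With the 60th percentile they were 0 and 1, 5 and 6, and 1 and 1 for the first 3 of these, 6 and 5 for terminal heart failure against dTGR, and 0 lower for losartan-treated dTGR against SD control. Taking the median over probe sets, 6 were lower in terminal heart failure than in SD control and 2 were higher with losartan than in dTGR. That choice turned the sign of Slc1a2, to 0.028 for dTGR against SD control, -0.028 for terminal heart failure against dTGR and -0.028 for losartan-treated dTGR against dTGR. Of 464 member values, 159 were at or under the floor and 19 lay between it and 32, where folds are least certain.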
